A study of Mus musculus with 36 samples.

Results

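The genes described here are those of the mitochondrial machinery that burns fuel to make ATP: the nuclear-encoded subunits of the 4 respiratory chain complexes, cytochrome c, ATP synthase and some of their assembly factors. They were chosen by name alone, as all genes whose symbol in the platform annotation begins with Nduf, Uqcr, Sdha to Sdhd, Cox4 to Cox8 or Atp5, together with Cyc1 and Cycs. By symbol this gives 93 genes with 146 probes. Of these, 85 genes with 125 probes were detected (detection p-value below 0.05) on at least 6 of 36 arrays and were tested, out of 10282 named genes tested in all. The 85 comprise 33 of 34 genes of complex I, 3 of 4 of complex II, 9 of 9 of complex III with cytochrome c, 11 of 16 of complex IV, 16 of 16 of complex V, 12 of 13 assembly factors and the pseudogene Ndufs5-ps, so that 72 are subunits. The genes not tested were Ndufs1, Sdha, Cox4i2, Cox6a2, Cox6b2, Cox7b2, Cox8c and Ndufaf6.

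Liver RNA of 36 male mice aged 20 weeks was hybridized to MouseWG-6 v2.0 beadchips, 1 mouse per array. The strain is C57BL/6J in the sample labels and C57BL/6JBomTac in the series design. For 13 weeks, 6 mice each had eaten a low-fat diet (10% of energy as fat), a high-fat diet (45%) or the latter with freeze-dried berries, lingonberry, blackcurrant, bilberry or açai, at 20% w/w. Each of 6 chips carried 1 array of every diet, and a diet always had the same position on it, so the effects of position and of diet cannot be told apart. The replicate number of a mouse is that of its chip. In bulk liver, fewer cells of a type and less RNA per cell cannot be told apart.

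Oxidative phosphorylation passes electrons from NADH (complex I) and succinate (complex II) through ubiquinone, complex III, cytochrome c and complex IV to oxygen, and complex V uses the resulting proton gradient to make ATP. In hepatocytes this pathway serves fatty acid oxidation, urea synthesis and gluconeogenesis. Most subunits are encoded in the nucleus, several have separate forms for liver and for heart and skeletal muscle, and their genes are known targets of the transcription factors NRF1, GABP and the ERR family. The subunits encoded by mitochondrial DNA were not analysed here.

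The 250 bases before the start of transcription were taken from RefSeq (GRCm38.p6) for Sdhaf1, Cox7a1 and Cox8b. Sdhaf1 was the only member called among all diets in the fit without the chip. Cox7a1 and Cox8b are the complex IV forms of heart and skeletal muscle. Cox6a1, the form of another complex IV subunit used in liver, was not called and is shown beside them; it is 1 of only 2 tested members, with Atp5l, whose windows held letters of both NRF1 and GABP. Capitals mark matches on either strand to GCGCATGC (letters of the NRF1 site), CCGGAAG (GABP) or AAGGTCA (ERR). Sdhaf1 lies at chr7:30322376-30322625 on the minus strand, Cox6a1 at chr5:115348959-115349208 on the minus strand, Cox7a1 at chr7:30183921-30184170 on the plus strand and Cox8b at chr7:140900447-140900696 on the minus strand.
Sdhaf1: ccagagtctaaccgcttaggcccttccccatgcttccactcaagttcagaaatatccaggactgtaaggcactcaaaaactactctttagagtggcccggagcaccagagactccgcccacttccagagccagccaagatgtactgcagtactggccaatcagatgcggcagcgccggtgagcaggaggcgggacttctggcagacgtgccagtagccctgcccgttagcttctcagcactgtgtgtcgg
Cox6a1: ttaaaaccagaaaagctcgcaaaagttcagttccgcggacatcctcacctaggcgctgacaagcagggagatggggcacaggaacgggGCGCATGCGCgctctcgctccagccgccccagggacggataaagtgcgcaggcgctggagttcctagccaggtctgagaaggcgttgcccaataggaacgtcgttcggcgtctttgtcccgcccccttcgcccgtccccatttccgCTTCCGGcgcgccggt
Cox7a1: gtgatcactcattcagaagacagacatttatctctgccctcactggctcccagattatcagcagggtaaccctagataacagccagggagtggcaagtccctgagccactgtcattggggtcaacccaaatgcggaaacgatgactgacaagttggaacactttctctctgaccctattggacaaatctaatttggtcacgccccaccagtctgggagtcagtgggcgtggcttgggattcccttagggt
Cox8b: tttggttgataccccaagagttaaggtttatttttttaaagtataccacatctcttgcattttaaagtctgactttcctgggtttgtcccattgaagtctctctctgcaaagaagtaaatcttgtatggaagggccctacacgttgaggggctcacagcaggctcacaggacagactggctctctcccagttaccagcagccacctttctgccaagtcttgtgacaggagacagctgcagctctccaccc
Cox6a1 held the NRF1 letters on both strands, overlapping in 1 stretch, and the GABP letters once, and the other 3 windows held none of the 3 motifs. Matches of different motifs did not overlap in these windows. Promoters were at hand for 74 of the 85 tested members, with 79 windows in all. GCGCATGC stood in 10 of the 79 windows (12.7%) and in 2.26% of all 32851 windows of the same length, and CCGGAAG in 16 of the 79 (20.3%) against 6.91%. AAGGTCA stood in 5.06% against 4.08%. These are matches of letters in a window and say nothing of binding.

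In the fit without the chip, no subunit gene was called for a difference among the diets. With the chip as a block, 1 of 72 was. Levels below are normalized log2 intensities, differences are log2 differences of diet means with the standard error of the fit, and a gene was called when its adjusted p lay below 0.05 in limma over all 17907 probes tested. In the test for any difference among the 6 diets, 8.03% of all probes and 1 of 85 members were called, and 0 of the 72 subunits. The single call was Sdhaf1 (adjusted p = 0.0244), and it was not made without low-fat 1, 3, 4 or 5 or without the arrays of any 1 of chips 1 to 5, which left 0 calls. With the chip as a block, 13.1% of probes and 3 members were called: Sdhaf1 (adjusted p = 0.00679), the complex I subunit Ndufs7 (0.0397) and the assembly factor Sdhaf2 (0.0427). Without adjustment, 3 of 85 members and 21.1% of all probes had p below 0.05. The highest and lowest of the 6 diet means lay a median of 0.17 apart for the members and 0.28 apart for all tested probes. A span under 0.5 was found for 82 of 85 members and for 87.5% of all probes. The exceptions were Cox7a1 (0.74), Uqcrq (0.51) and Cox8b, for which no span can be given because it was detected in no liver of its lowest diet, açai. Uqcrfs1, detected in no liver of its lowest diet, blackcurrant, stands among the 82 at its fitted value.

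High-fat feeding was compared with low-fat feeding, both without berries. These diets also differ in the energy not drawn from fat and in array position, so fat content alone cannot be singled out. Of all probes 3.31% were called and 1.97% were called higher; of the 85 members 1, Sdhaf1, was higher and none was lower. The median difference of the members was 0.040, against -0.0036 over all probes, and 59 of 85 members lay above 0 and 26 below; of all probes, 50.8% lay below. The 95% intervals of 78 members lay within 0.5 of 0, as did those of 73.0% of all probes, and the intervals of all 85 lay within 1. Cox8b, detected in no high-fat liver, stands in these counts at its fitted value. Unadjusted p-values below 0.05 were found for 4 members (4.71%) and for 15.4% of all probes.

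**Figure D1:**
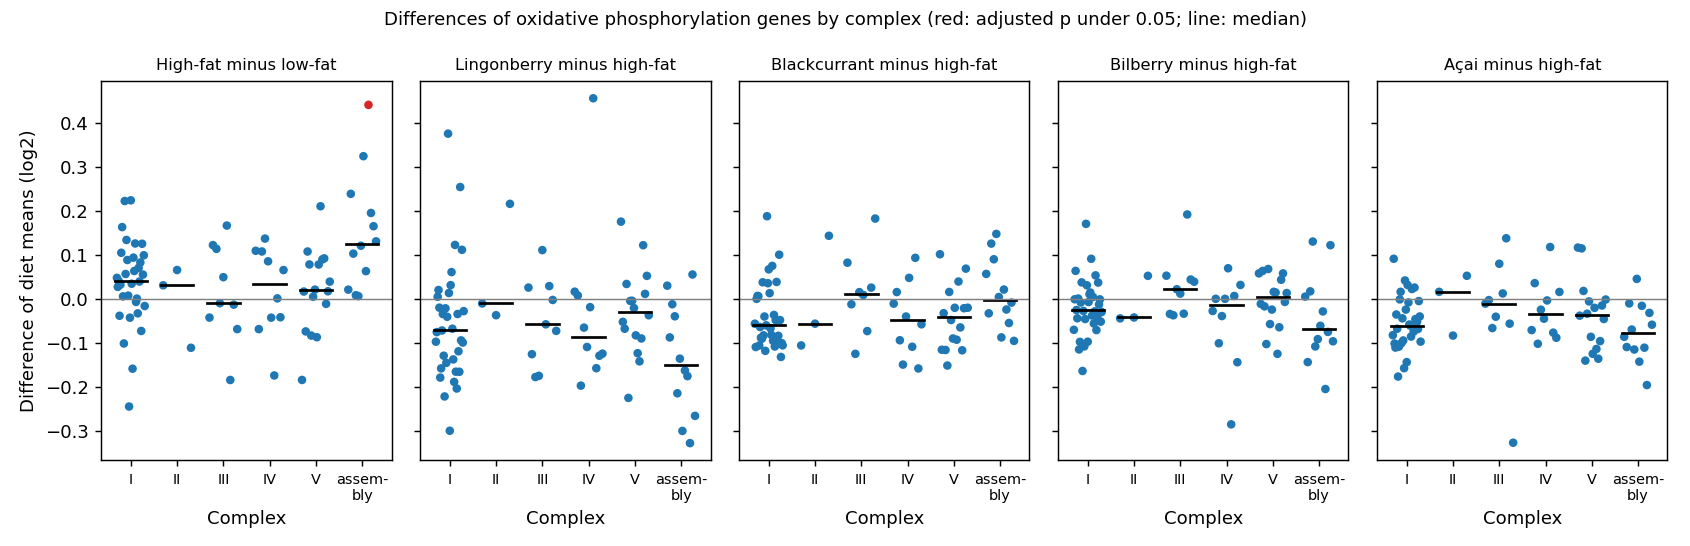
Difference of diet means (vertical axis, log2) in 5 comparisons, 1 point per gene, set out by complex (horizontal axis), with the median of the points as a black line; the pseudogene and genes detected in no liver of a diet compared are left out, which leaves 83 genes, or 82 with blackcurrant. Only Sdhaf1 among the assembly factors of the first panel is red (called); Cox7a1 (0.46) is the highest point of the lingonberry panel.

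Complex I, the NADH dehydrogenase, had a median difference of 0.040 over its 33 tested genes, with a range from -0.25 to 0.22. Ndufv1, which carries the site that oxidizes NADH, differed by 0.055 ± 0.076 (SE), with means of 11.64 on high fat and 11.58 on low fat. Ndufs8, an iron-sulfur subunit, differed by 0.12 ± 0.099, and by the same sign on 6 of 6 chips, with an adjusted p of 0.605. Ndufb3, an accessory subunit of the membrane arm, ran from 9.91 through a median of 10.29 to 10.81 on low fat and from 10.41 through 10.60 to 10.69 on high fat. The low-fat livers spread wider and enclosed the high-fat range, and the difference of 0.22 ± 0.13 was not called (adjusted p = 0.427).

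Complex II, the succinate dehydrogenase of the citric acid cycle, was represented by Sdhb, Sdhc and Sdhd. Sdhb, the iron-sulfur subunit, ran from 10.72 through 10.89 to 10.997 on low fat and from 10.74 through 10.90 to 11.14 on high fat. Its ranges overlapped nearly whole, and the difference was 0.030 ± 0.085, with a 95% interval from -0.14 to 0.20. Sdhd, a membrane anchor that helps bind ubiquinone, ran from 9.99 through 10.35 to 10.47 on low fat and from 9.61 through 10.22 to 10.56 on high fat, so that the high-fat range held all low-fat values. Its difference was -0.11 ± 0.13 (adjusted p = 0.745). Sdhc, the other anchor, differed by 0.065 ± 0.080.

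Complex III and cytochrome c split evenly, with 4 of 9 genes above 0. Uqcrc2, a core subunit, had the smallest p of all subunits in this comparison, with a difference of 0.17 ± 0.079 that was not called (adjusted p = 0.295). Cycs, cytochrome c itself, differed by 0.12 ± 0.087, and Cyc1, the heme-bearing cytochrome c1, by -0.043 ± 0.074. Uqcrfs1, the Rieske iron-sulfur protein, was near background at its probe, detected in 3 of 6 low-fat and 2 of 6 high-fat livers, and differed by -0.19 ± 0.14. Uqcrq, a small subunit, ran from 5.33 through 5.65 to 6.35 on low fat and from 5.07 through 5.64 to 6.53 on high fat. The medians were nearly equal, and the wide interval of the fit without the chip, from -0.49 to 0.35, leaves room for a change of either sign.

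Complex IV, cytochrome c oxidase, had a median difference of 0.00046 over 11 genes, or 0.033 without Cox8b. Cox4i1, the main form of subunit 4 in liver, differed by 0.11 ± 0.087, Cox5b by 0.11 ± 0.085 and Cox7a2, the liver form of subunit 7a, by 0.00046 ± 0.12. Cox6a1 ran from 12.42 through 12.67 to 12.88 on low fat and from 12.66 through 12.81 to 12.96 on high fat, a difference of 0.14 ± 0.079 with overlapping groups (adjusted p = 0.428). Ndufa4, once placed in complex I and now counted with complex IV, differed by 0.065 ± 0.096. None of these was called.

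Complex V, the ATP synthase, had a median of 0.018 over 16 genes. Atp5b, the catalytic beta subunit, had means of 13.68 on high fat and 13.67 on low fat, a difference of 0.016 ± 0.076. Atp5c1, the gamma subunit of the central stalk, ran from 12.002 through 12.06 to 12.28 on low fat and from 11.95 through 12 to 12.26 on high fat, and the ranges overlapped. Atp5j, coupling factor 6 of the outer stalk, differed by -0.088 ± 0.088, with the same sign on 6 of 6 chips (adjusted p = 0.696). Atp5g2 and Atp5g3, which encode the same ring subunit, differed by -0.084 ± 0.12 and 0.0041 ± 0.084.

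The assembly factors, which build the complexes without being part of them, lay above 0 in 12 of 12 cases, with a median of 0.13. Sdhaf1 is needed for the iron-sulfur clusters of Sdhb. Its level ran from 8.57 through 8.71 to 8.95 on low fat and from 9.004 through 9.22 to 9.33 on high fat. The groups did not overlap, and the means of 8.76 ± 0.15 and 9.20 ± 0.11 (SD, n = 6 each) differed by 0.44 ± 0.10 (SE; 95% interval 0.24 to 0.64; adjusted p = 0.00821), with the same sign on 6 of 6 chips. A second Sdhaf1 probe of nearly equal brightness, with a mean level over all arrays of 8.99 beside 9.04, ran from 8.66 through 8.89 to 9.02 on low fat and from 8.86 through 9.12 to 9.18 on high fat. At that probe the groups overlapped, and the difference of 0.20 was not called (adjusted p = 0.294). Leaving out the arrays of chip 3 gave 0.38 (adjusted p = 0.0581) at the first probe, and leaving out no other chip or single liver ended the call. The hepatocyte markers beside it had 1 of 10 called lower on high fat, Cps1, the urea cycle enzyme, by -0.92 ± 0.19.

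**Figure D2:**
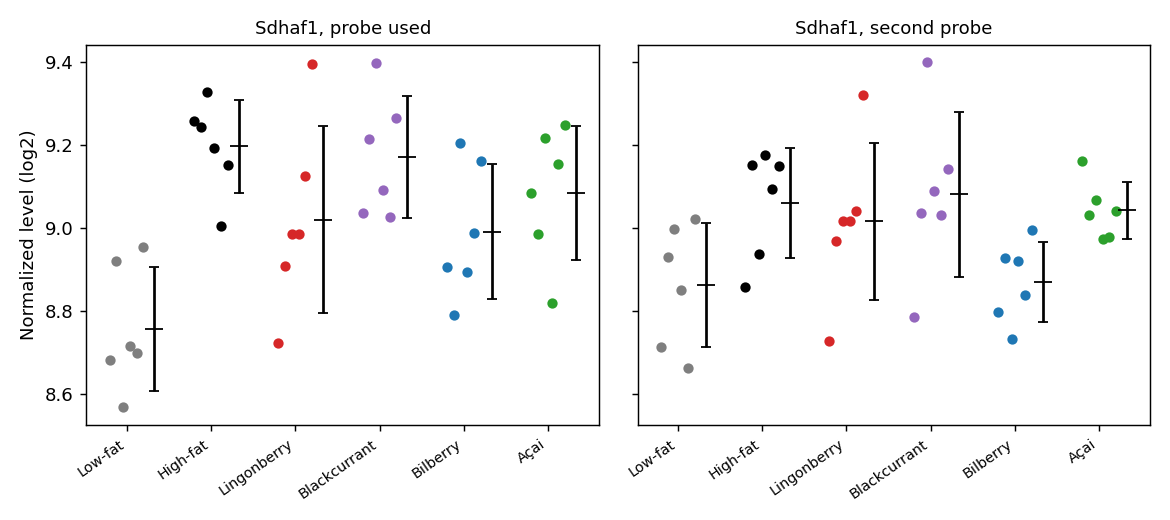
Normalized level (vertical axis, log2) of Sdhaf1 in each of 36 livers by diet (horizontal axis), at the probe used (left) and at a second probe (right), with mean and SD as a bar at the side of each group. On the left the low-fat livers reach 8.95 and the high-fat livers begin at 9.004; on the right the 2 groups overlap between 8.86 and 9.02.

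Among the berry diets, which are all high in fat, Sdhaf1 was called higher than on low fat with blackcurrant (0.42 ± 0.10, adjusted p = 0.0190) and açai (0.33 ± 0.10, adjusted p = 0.0415). With lingonberry the difference was 0.26 ± 0.10 (adjusted p = 0.170) and with bilberry 0.23 ± 0.10 (adjusted p = 0.319). These comparisons share the low-fat livers. At the second Sdhaf1 probe the means were 8.86 on low fat, 9.08 with blackcurrant, 9.04 with açai, 9.02 with lingonberry and 8.87 with bilberry. Each of these berry means lay closer to that of low fat than at the first probe. Against low fat, 1 of 85 members was called with blackcurrant (2.31% of all probes) and with açai (6.47%), and none with lingonberry (3.28%) or bilberry (1.61%). With only the arrays of the 2 diets in the fit, neither the blackcurrant nor the açai call was made. The açai call was also absent without the 3 livers with muscle transcripts named below and without any 1 of 8 single livers, low-fat 1, 3, 4 or 5 and açai 1, 3, 5 or 6, and the blackcurrant call without blackcurrant 3 or the arrays of any 1 of chips 2 to 5. With the chip as a block, 2 members were called with açai (10.2% of probes), the second being Atp5j at -0.21 (adjusted p = 0.0360).

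Each berry diet was also compared with the plain high-fat diet, which had another array position. In limma, 0 members were called with lingonberry (2.25% of all probes), blackcurrant (0.134%), bilberry (0.380%) or açai (0.0447%). Unadjusted p-values below 0.05 were found for 11 members with lingonberry (12.9%, against 14.1% of all probes), 0 with blackcurrant (against 8.67%), 1 with bilberry (against 7.83%) and 0 with açai (against 6.06%). Median differences of the members were -0.066, -0.041, -0.013 and -0.047, in that order of diets, with medians over all probes between -0.0091 and 0.0065. Below 0 lay 61, 55, 51 and 66 of 85 members, against 48.5%, 49.7%, 49.7% and 52.6% of all probes. All 4 comparisons share the high-fat livers, whose members averaged 0.030 above their overall means. The intervals lay within 0.5 of 0 for 75, 80, 82 and 82 members, against 74.3%, 78.9%, 80.2% and 82.2% of all probes. Cox8b, and Uqcrfs1 with blackcurrant, stand in these counts at their fitted values, since each was detected in no liver of a diet compared. Against the mean of the other berries, no member was called for lingonberry (1.56% of all probes), blackcurrant (0.894%), bilberry (0 of the probes) or açai (2.55%); with the chip as a block Ndufs7 and Cox7a1 were called for lingonberry (2.89% of probes).

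Lingonberry had the lowest p-values. Ndufs7, the iron-sulfur subunit next to the ubiquinone site of complex I, ran from 10.98 through 11.22 to 11.35 on plain high fat and from 11.32 through 11.47 to 11.51 with lingonberry. The lingonberry livers lay at the top of the high-fat range or above it, and the difference was 0.25 ± 0.076 (adjusted p = 0.0680), with the same sign on 5 of 6 chips. With the chip as a block, 2 members were called in this comparison (4.0% of probes), Ndufs7 higher (adjusted p = 0.0398) and Sdhaf2, which attaches FAD to Sdha, lower (-0.33 ± 0.12; adjusted p = 0.0207, and 0.142 without the block). Over the alternatives the adjusted p of Ndufs7 ran from 0.0133 to 0.317. Among the other members with the smallest p-values, Ndufa8 differed by -0.22 ± 0.083 and Ndufb3 by -0.30 ± 0.13, neither called. Ndufb11 differed by 0.37 ± 0.14 and was not called either. Cox5b gave -0.20 ± 0.085 at its brightest probe (adjusted p = 0.263) and -0.31 at a dimmer one, which was called (adjusted p = 0.0359).

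Cox7a1, Cox8b and Cox6a2 are the forms of complex IV subunits found in heart and skeletal muscle. Cox8b ran from 4.29 through 4.38 to 4.65 on plain high fat, where it was detected in no liver, and from 4.29 through 4.62 to 7.17 with lingonberry, where it was detected in 3 of 6. The comparison was not called (adjusted p = 0.324). With the level of the dimmest detected probes in place of undetected high-fat values, lingonberry was at least 1.28-fold higher, a bound that rests on lingonberry 2: without that liver the lingonberry mean was 4.61, under the floor of 4.68, and no bound remained. Lingonberry 2 stood at 7.17, low-fat 4 at 5.77 and lingonberry 1 at 5.18, and the other 33 livers at 4.90 or below. Cox6a2 was too rarely detected to be tested. It was detected in the same 3 livers, at 7.41, 6.38 and 5.76, and in bilberry 6 at 5.14. Cox7a1 was detected in all livers and ran from 6.04 through 6.49 to 7.28 with lingonberry and from 5.88 through 6.12 to 6.28 on plain high fat. Lingonberry 2 was the highest of all livers, and the difference was 0.46 ± 0.20 (adjusted p = 0.290).

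Skeletal muscle transcripts were highest in the same 3 livers as Cox8b and Cox6a2. Cox7a1 did not follow them throughout. It stood at 6.50 in low-fat 4 and 6.26 in lingonberry 1, below its 6.93 in low-fat 6, which had a muscle marker mean of 4.49. Of 9 muscle markers on the array 5 passed the filter (Acta1, Mylpf, Pvalb, Myl1 and Tnni2), and 1 was detected in no liver. Their mean level was 8.88 in lingonberry 2, 7.98 in low-fat 4, 6.77 in lingonberry 1 and at most 5.24 in the other livers. By diet it ran from 4.40 to 7.98 on low fat, from 4.32 to 4.48 on high fat, from 4.44 to 8.88 with lingonberry, from 4.42 to 5.24 with blackcurrant, from 4.36 to 4.45 with bilberry and from 4.36 to 4.50 with açai. Without those 3 livers, an alternative chosen after seeing the data, the lingonberry difference was 0.35 for Cox7a1 (adjusted p = 0.618), neither Cox8b (adjusted p = 0.966) nor any other member was called, and the remaining Cox8b values lay at 4.90 or below. The median over the members was then -0.014. For Sdhaf1 the difference of high fat from low fat was 0.43 (adjusted p = 0.0173). Pancreatic acinar markers also set livers apart. Their mean was 9.77 in lingonberry 2, 9.24 in açai 6, 8.39 in bilberry 2, 7.86 in açai 4, 7.71 in blackcurrant 3 and 7.59 in low-fat 6, and between 5.34 and 5.94 in the other 30 livers. With that mean as a covariate the lingonberry difference was 0.34 for Cox7a1, and neither Cox7a1 nor Cox8b was called. Without the 6 livers, an alternative chosen after seeing the data, Sdhaf1 was higher by 0.48 on high fat than on low fat (adjusted p = 0.00416), and it was again the single member called with blackcurrant and with açai against low fat and among all diets. The median over the members was then 0.084 for high fat against low fat, and no member was called in the comparisons of berries with plain high fat.

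**Figure D3:**
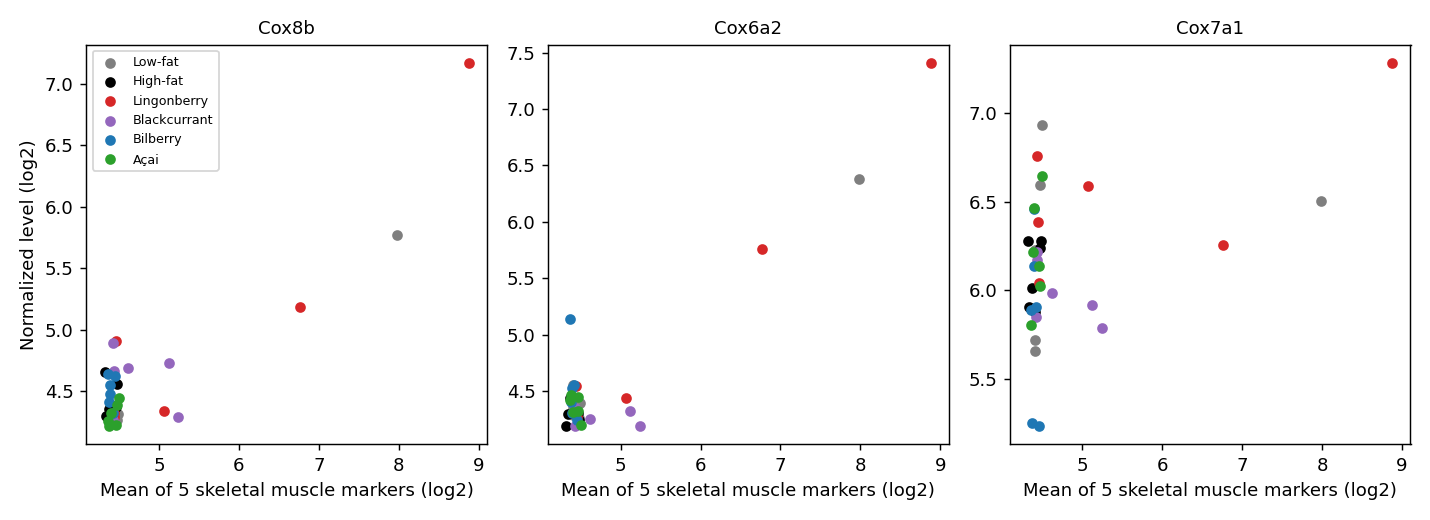
Normalized level (vertical axes, log2) of Cox8b, Cox6a2 and Cox7a1 against the mean of 5 skeletal muscle markers (horizontal axes, log2), 1 point per liver, coloured by diet. In the first 2 panels the livers lingonberry 2, low-fat 4 and lingonberry 1 stand apart at 8.88, 7.98 and 6.77 on the horizontal axis; for Cox7a1 the other livers spread from 5.23 to 6.93 on the vertical axis.

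Most members varied more with the chip than with the diet. This comparison was chosen after seeing the data. With diet in the model, 43 of 85 members were called for a difference among the 6 chips, beside 19.0% of all probes. The chip held a median of 40.4% of the variance of a member and the diet 12.5%, whereas over all probes these were 20.2% and 17.7%; the chip share was the larger in 72 of 85 members (84.7%) and in 55.5% of all probes. Bright probes were called more often: among the 1841 tested probes with a mean level of at least 9.66, the lower quartile of the members, 36.7% were called, and 32 of the 64 members in that range; the chip held a median of 28.9% of the variance of those probes and the diet 22.1%. Without the 3 livers with muscle transcripts the number called for the chip was 36 members and 15.9% of probes. Without the 6 with pancreatic transcripts it was 18 members and 9.97% of probes. Whether the lower numbers came from fewer arrays or from those livers was not tested. By complex, the chip was called for 14 of 33 genes of complex I, 1 of 3 of complex II, 5 of 9 of complex III, 5 of 11 of complex IV, 11 of 16 of complex V and 6 of 12 assembly factors. The genes of the mitochondrial ribosome, which makes the mitochondrially encoded subunits, were called for the chip in 38 of 73 cases, and regulators of mitochondrial biogenesis in 1 of 14.

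The members did not all differ between the chips in the same direction. Anything else that the mice of a chip shared cannot be told apart from the chip. The mean shift of the members from their overall means was above 0 on 6 of 6 arrays of chip 6, with a mean of 0.11, and below 0 on 5 of 6 arrays of chip 1, with a mean of -0.077. Of the 85 members 43.5% were highest on chip 3 and 41.2% on chip 6, against 26.8% and 17.0% of all probes. On chip 1 43.5% were lowest, against 16.3% of all probes, and on chip 3 22.4%, against 23.6%. Ndufs4, an accessory subunit needed for a stable complex I, ran from 11.003 to 11.43 on chip 1, from 11.60 to 11.89 on chip 3 and from 11.50 to 11.82 on chip 6, and the chip held 80.1% of its variance. No array of chips 3 and 6 was as low as the highest of chip 1. Uqcrh, the hinge protein of complex III, ran the same way, from 12.69 to 12.97 on chip 1 and from 13.01 to 13.25 on chip 6, with 78.9%. Atp5a1, the alpha subunit of ATP synthase, ran the other way, from 11.58 to 11.97 on chip 1 and from 11.21 to 11.44 on chip 6, with 73.8%. The median raw intensity of an array averaged 85.03 on chip 3 and 99.2 on chip 1, with the other chips between, and its part in the chip differences was not tested.

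**Figure D4:**
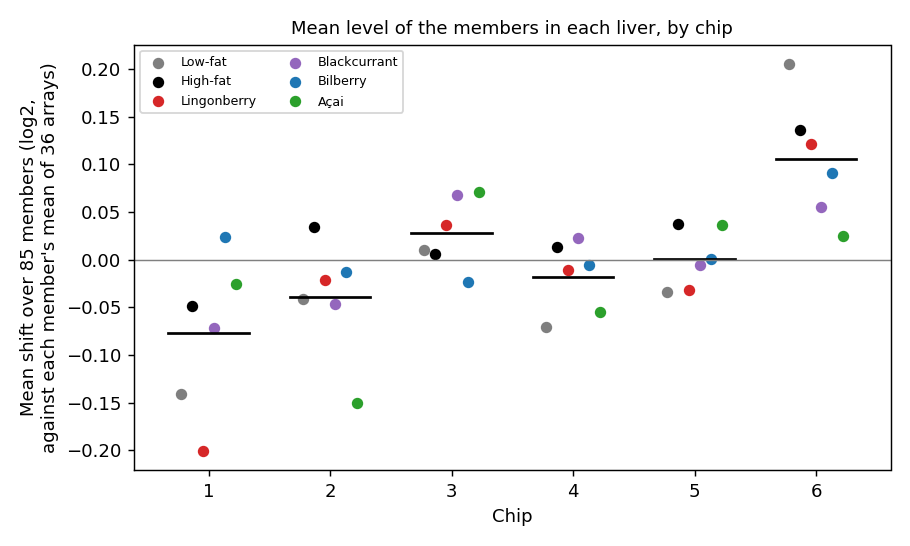
Mean shift of the 85 members from their means over all arrays (vertical axis, log2) in each liver, by chip (horizontal axis) and coloured by diet, with the chip mean as a line. All 6 arrays of chip 6 lie above 0 (mean 0.11), whereas 5 of 6 of chip 1 lie below (mean -0.077).

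**Figure D5:**
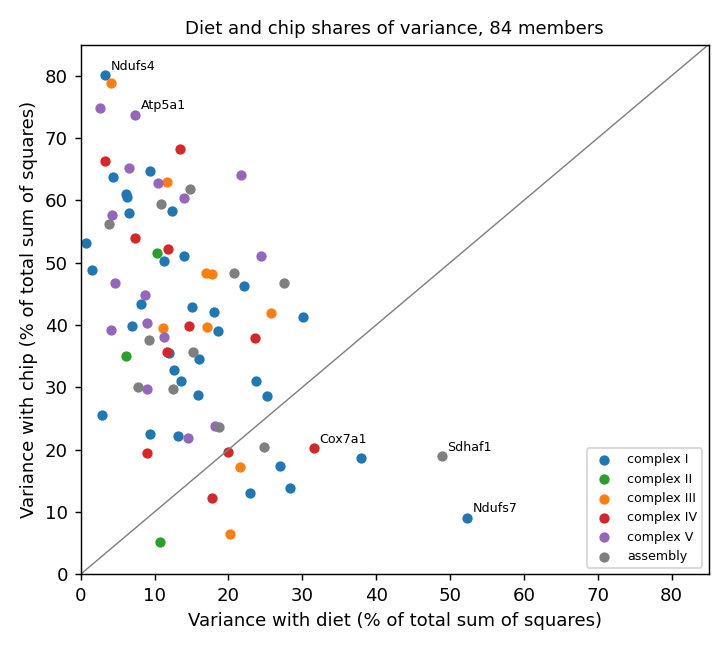
Share of each member's variance held by the diet (horizontal axis, %) and by the chip (vertical axis, %), 1 point per gene for 84 members (the pseudogene is left out), coloured by complex, with equality as a line. Most points lie above the line, up to 80.1% for Ndufs4; Sdhaf1 and Ndufs7 lie below it, with diet shares of 48.9% and 52.3%.

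Livers also differed in the mean level of all members. With diet means removed, the mean shift of a mouse had an SD of 0.082, and of 0.057 with chip means removed as well. By diet the mean shift was -0.012 ± 0.12 on low fat, 0.030 ± 0.061 on high fat, -0.018 ± 0.11 with lingonberry, 0.0037 ± 0.056 with blackcurrant, 0.012 ± 0.042 with bilberry and -0.016 ± 0.080 with açai (SD, n = 6 each). The groups overlapped, and the lowest and highest livers were lingonberry 1 at -0.20 and low-fat 6 at 0.21.

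Genes that work with the complexes were read in the same fit; the lists are described with the processing. In the comparison of high fat with low fat, 1.97% of all probes were called higher and 50.8% lay below 0. Among 32 tested assembly factors outside the symbol rule, 3 rose on high fat against low fat and none fell: Lyrm2, a complex I assembly factor, by 0.69 ± 0.14 (adjusted p = 0.00246), Coa6, which serves the copper site of complex IV, by 0.66 ± 0.17 (0.0260), and Uqcc1, needed for complex III, by 0.59 ± 0.11 (0.00064). Their list had a median of 0.15, with 26 of 32 above 0. In the citric acid cycle 1 of 12 genes rose, Suclg2, which makes GTP from succinyl-CoA, by 0.52 ± 0.098 (adjusted p = 0.00102). Of 73 mitochondrial ribosomal proteins 1 rose, Mrpl49, by 0.51 ± 0.088 (adjusted p = 0.000377), with a list median of 0.11. None of 16 genes of coenzyme Q synthesis and other electron entry was called, with a median of 0.20 and 14 above 0. Nor was any of 14 regulators of mitochondrial biogenesis (median 0.088). The same held for 9 genes of nucleotide and phosphate carriers, Vdac channels and Atpif1 (median -0.048). The uncoupling proteins Ucp1, Ucp2 and Ucp3 of that list were not tested. In the 4 comparisons of berries with plain high fat, none of these lists had a called gene. Of all probes, between 0.0447% (açai) and 2.25% (lingonberry) were called there, so few calls could be looked for in short lists.

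Levels at other probes did not always follow the brightest. Over 40 further tested probes of members with several, the sign matched that of the brightest probe in 26 cases for high fat against low fat, and in 25, 23, 20 and 25 cases for lingonberry, blackcurrant, bilberry and açai against plain high fat. Of the hepatocyte markers, 9 of 10 were detected on all arrays. Per array, 14240 to 15670 of 45281 probes were detected, and the median raw intensity lay between 81.2 and 103. The number of mice, 6 a diet, limits the precision of each difference. So do the differences between chips, which the standard errors and intervals given here leave in the error.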

How the data were processed

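The authors deposited a raw table with an intensity, on a linear scale without background subtraction, and, for each probe on each array, a detection p-value whose computation the sources used here leave unstated. They also deposited processed log2 values, which lay within 0.0501 of the values computed here, so that they are on the log2 scale and not centred per gene; how they were normalized: not given in the sources used here. An AllPrep kit for RNA and a TotalPrep-96 kit for amplification are named, per the labels' protocols.

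Raw intensities of 45281 probes were corrected and quantile normalized with neqc (offset 16) of limma 3.58.1 in R 4.3.3; 974 entries without a detection p-value were left out. A probe was tested when detected (p-value below 0.05) on at least 6 arrays. lmFit on all 36 arrays with a mean per diet, contrasts and eBayes gave two-sided p-values, with Benjamini-Hochberg adjustment over all 17907 probes tested. The fit was tried on simulated data without a chip effect, with probes changed in high fat against low fat. It called 46 of 100 probes changed by 0.5 log2 and 99 of 100 changed by 1. A true difference of 0.5 can thus go uncalled. The changed probes were drawn from all tested probes, whose median SD within a diet was 0.23, beside 0.17 for the members. The share called among members was not tested. A gene stands for its brightest tested probe, which was detected on all 36 arrays for 82 of 85 members. The chip and position of each mouse come from the labels, so that mice of 1 number share a chip, and a fit with the chip as a block is given where it changed a call. A diet in which a probe was detected in no liver has only a bound: the fold is the brighter mean over the dim diet's mean of either the lowest detected level on each array or the probe's own level, whichever was higher.

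Members were named from the platform annotation; Ndufa4 was counted with complex IV, and Cox7a2l, Ndufaf and Sdhaf genes as assembly factors. The members and the gene lists were chosen with earlier results of these data known. Members given with mouse values are those called, the 2 per complex with the smallest p among diets and the tissue forms of complex IV and of the ATP synthase ring; for the lists, called genes are named, and other members were picked for their role or after their values were seen. Promoter windows came from RefSeq (GRCm38.p6). Figures were drawn with matplotlib 3.10.9.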

Additional observations from a re-analysis of the deposited data

Results flagged for a closer look

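In 120 groups of 6 mice (13 named members and 7 mean shifts, by diet), 6 held a mouse far from the other 5 by Dixon's ratio, as chance alone gives in about 5% of groups. Cox8b was far higher in low-fat 4 (5.77, next 4.38) and in lingonberry 2 (7.17, next 5.18), both livers with muscle transcripts. Ndufb3 was far lower in lingonberry 1 (9.73, next 10.27). The mean shift of the 3 complex II genes was far lower in bilberry 3 (-0.32, next 0.0027). This liver lay on chip 3, where that shift averaged -0.15 over 6 arrays. In low-fat 6 the mean shift was far higher for complex V (0.19, next -0.0020) and for the assembly factors (0.23, next -0.11). That liver also had a pancreatic marker mean of 7.59, against 5.55 to 5.67 in the other low-fat livers. Its adipose marker mean was 5.01, against at most 4.67 in those livers and 4.88 in lingonberry 2, the next highest of all. Of 5 adipose markers on the array only 2, Adipoq and Lep, were tested, and 2 were detected in no liver. Low-fat 6 lay on chip 6, where the mean shift averaged 0.091 for complex V and 0.11 for the assembly factors. The part of the markers and of the chip in these shifts was not tested.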

How the results depend on the processing

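Counts of called members are small, so single genes near the threshold move them. In the authors' processed table all counts were those given in the report. The Ndufs7 call raised lingonberry against high-fat from 0 to 1 with normexp, with no background correction, with all probes, with probes detected on all arrays and with array weights. It reached 2 with the replicate block of chips (Ndufs7 and Sdhaf2) and with the mean of a gene's probes (Ndufs7 and Cox5b). Lingonberry against the other berries rose from 0 to 1 in each of those settings and without quantile normalization, with a detection limit of 0.01, with trend and robust variance and with the pancreatic covariate (Ndufs7, or Cox7a1 without quantile normalization and with the covariate), and to 2 with the replicate block. Açai against the other berries rose from 0 to 1 with normexp and with no background correction. The test among all diets rose from 1 to 2 with normexp, no background correction, all probes, detection on all arrays, trend and robust variance, array weights, the covariate and the mean of probes, and to 3 with the replicate block. Açai against low-fat went from 1 to 0 with all probes, the covariate, the mean of probes, only the arrays compared and without the 3 livers with muscle transcripts, and to 2 with the replicate block. Blackcurrant against low-fat went from 1 to 0 with only the arrays compared. The block changed no other call.

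Without single arrays or chips the counts ran from 0 to 1 for high-fat against low-fat (1 without any single array), for lingonberry against high-fat, for blackcurrant and açai against low-fat and among all diets, and from 0 to 2 for lingonberry against the other berries. The number called for the chip was 43 as given, 18 without the 6 livers with pancreatic transcripts, and between 36 and 60 in the other settings and without single arrays. Median differences over the members moved by less than their spread between chips in every setting, with 1 exception: lingonberry against low-fat went from -0.018 to 0.040 without quantile normalization. The median for high-fat against low-fat lay between 0.018 and 0.094 throughout, and that for bilberry against high-fat turned from -0.013 to as much as 0.013 without single arrays or chips. Of the named members' values in the 5 main comparisons, none changed sign while called; Sdhaf1 missed the threshold without chip 3, and Ndufs7 passed it in 10 alternatives. Cox8b had no value under the stricter detection filters. Probes near background, such as those of Cox8b and Uqcrfs1, limit what can be read of these genes.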
